A study of Mus musculus with 6 samples.

Results

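The genes described here are 10 transcripts that mark inflammatory monocytes in the mouse, Ly6c2, Chi3l3, Plac8, Tyrobp, Fcer1g, Lyz2, Cd14, Fcgr1, Clec4e and Aif1. They were found by their symbols among the 23361 genes of the authors' deposited table, and all 10 were among the 14858 genes that the authors tested. They were chosen with the values of this same comparison in view, so their differences below are a description and not a test of the set. The samples were cells labelled primary satellite cells, sorted by FACS on the surface proteoglycan Sdc4 from collagenase-digested hindlimb muscle of mice aged 4 months. There were 3 samples labelled AUF1-null and 3 labelled wild-type, from mice bred through C57BL/6 on a 129 background. AUF1 is the protein of Hnrnpd, which binds AU-rich mRNAs, and the labels describe the AUF1-null mice no further. The deposited table holds 1 pooled value per gene for each of 2 conditions named q1 and q2, in fragments per kilobase of transcript, scaled to library size (FPKM). Which genotype stands behind q1 and which behind q2 is stated in no label, so directions below compare q2 with q1 and are not those of a genotype. No value has an SD or n of its own.

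Inflammatory monocytes leave the bone marrow through the chemokine receptor Ccr2, circulate with high surface Ly6C, and enter injured or inflamed muscle, where they can become macrophages. They take up microbes and debris through receptors such as Cd14, Clec4e and Fcgr1. Several of these receptors have no signalling tail of their own and pair with the small adaptors Tyrobp and Fcer1g, whose tyrosine motif (ITAM) recruits the kinase Syk. None of the 10 genes is exclusive to monocytes. Lyz2, Tyrobp, Fcer1g, Cd14, Clec4e and Chi3l3 are also known from neutrophils or their precursors, and Aif1, Tyrobp and Fcgr1 from tissue macrophages.

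The genes lie on 9 chromosomes of GRCm38, and 3 of them have near copies next to them, which matters for how their reads can be counted. Promoter sequences from RefSeq (GRCm38.p6), 250 bases before and 50 after an annotated start, were used for 8 of the 10 genes. The remaining members were left out of the motif search, which does not show that RefSeq lists no promoter for them. Shown here are those of Ly6c2 and Lyz2 beside their near copies Ly6c1 and Lyz1, and those of Chi3l3 and Clec4e, which were called higher in q2 and carry motif matches. Capitals mark matches on either strand to GAGGAAGT, a motif of the myeloid factor PU.1, or TTGCNNAA, a motif of C/EBP factors. They also mark TATAAA, the letters of a TATA box at any place in the window, and TTCNNNGAA, the motif of interferon-activated factors known as GAS. The motif of AP-1 factors was searched as TGANTCA. No match overlapped another.
Ly6c2, chr15:75111922-75112221, minus strand: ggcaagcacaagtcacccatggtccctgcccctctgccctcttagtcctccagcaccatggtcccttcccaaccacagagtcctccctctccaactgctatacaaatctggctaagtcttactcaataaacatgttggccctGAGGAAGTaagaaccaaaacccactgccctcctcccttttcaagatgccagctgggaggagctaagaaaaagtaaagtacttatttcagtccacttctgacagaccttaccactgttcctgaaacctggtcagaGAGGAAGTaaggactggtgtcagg
Ly6c1, chr15:75048788-75049087, minus strand: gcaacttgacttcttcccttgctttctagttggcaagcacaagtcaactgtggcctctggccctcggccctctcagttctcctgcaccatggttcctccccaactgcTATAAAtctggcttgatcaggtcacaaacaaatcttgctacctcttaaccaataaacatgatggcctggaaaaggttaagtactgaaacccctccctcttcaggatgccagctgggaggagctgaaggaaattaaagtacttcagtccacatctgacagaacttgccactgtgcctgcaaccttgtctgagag
Lyz2, chr10:117282223-117282522, minus strand: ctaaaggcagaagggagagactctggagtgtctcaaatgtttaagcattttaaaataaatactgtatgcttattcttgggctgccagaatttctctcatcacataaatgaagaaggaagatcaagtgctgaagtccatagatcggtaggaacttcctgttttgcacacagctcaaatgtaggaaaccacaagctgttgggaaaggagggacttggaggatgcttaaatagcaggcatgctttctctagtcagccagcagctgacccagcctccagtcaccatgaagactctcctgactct
Lyz1, chr10:117292819-117293118, minus strand: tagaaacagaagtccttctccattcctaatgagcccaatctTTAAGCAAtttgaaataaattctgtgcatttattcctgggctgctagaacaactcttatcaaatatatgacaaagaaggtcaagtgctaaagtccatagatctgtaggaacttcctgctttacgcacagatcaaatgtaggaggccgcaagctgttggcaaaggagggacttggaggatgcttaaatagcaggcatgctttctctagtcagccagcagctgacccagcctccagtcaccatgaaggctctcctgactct
Chi3l3 (Chil3 in RefSeq), chr3:106167515-106167814, minus strand: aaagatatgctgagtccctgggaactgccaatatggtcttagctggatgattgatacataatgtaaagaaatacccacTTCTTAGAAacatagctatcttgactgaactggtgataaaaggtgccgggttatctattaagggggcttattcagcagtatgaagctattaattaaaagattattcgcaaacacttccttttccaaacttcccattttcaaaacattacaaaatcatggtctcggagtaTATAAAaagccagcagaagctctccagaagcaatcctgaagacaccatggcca
Clec4e, chr6:123289822-123290121, minus strand: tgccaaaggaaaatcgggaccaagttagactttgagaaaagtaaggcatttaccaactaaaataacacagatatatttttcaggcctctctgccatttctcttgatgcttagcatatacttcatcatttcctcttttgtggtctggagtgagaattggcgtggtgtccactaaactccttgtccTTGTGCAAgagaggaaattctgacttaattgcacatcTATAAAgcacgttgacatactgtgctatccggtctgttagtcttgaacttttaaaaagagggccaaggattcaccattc

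Among the 8 promoters, 1 held the PU.1 motif, 1 the C/EBP motif, 2 the letters TATAAA, 2 the GAS motif and none the AP-1 motif. Over all 32851 listed promoters the shares were 3.20%, 10.8%, 13.6%, 8.30% and 7.81% in the same order. Ly6c2 held GAGGAAGT at 2 places, and the C/EBP match of Clec4e began 66 bases before the annotated start, upstream of its TATAAA at 29 bases. The TATAAA of Chi3l3 began 3 bases before the annotated start and that of Ly6c1 143 bases before it. The other GAS match, besides that of Chi3l3, was TTCCCAGAA in the promoter of Fcgr1. In the best aligned pair of listed starts, the promoters of Lyz2 and Lyz1 were identical at 82.2% of aligned bases and those of Ly6c2 and Ly6c1 at 74.3%. The printed Ly6c1 window ends before its own GAGGAAGT, which the window of its other listed start holds once. These matches are descriptions of letters in a window.

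The level of every one of the 10 genes was higher in q2 than in q1, by 2.31-fold for Cd14 up to 11.3-fold for Ly6c2. In the authors' deposited table, 4 of the 10 passed their Cuffdiff test at q below 0.05, namely Ly6c2, Chi3l3, Clec4e and Tyrobp, all higher in q2. Over all tested genes 0.498% were called higher, and nothing is read from the contrast of these shares because the genes were chosen from this comparison. The other 6 did not pass, with q between 0.105 for Plac8 and 0.504 for Lyz2 in the authors' deposited table. The median log2 fold change of the 10 was 1.88, beside -0.01 over the 14779 tested genes above 0 on both sides. All 10 were at least 2-fold higher in q2, as were 7.71% of tested genes.

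**Figure D1:**
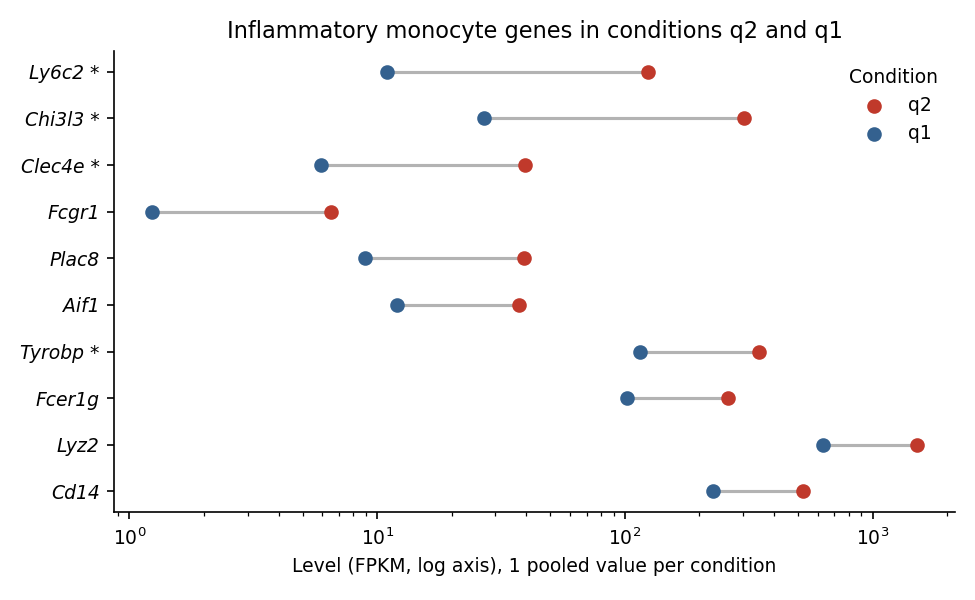
Level of each gene in FPKM on a log axis, 1 pooled value per condition, with q2 in red and q1 in blue. Asterisks mark the 4 genes with q below 0.05 in the authors' deposited table, and every red point lies to the right of its blue point.

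Ly6c2, which codes for one of the surface antigens that together are stained as Ly6C, had 124 FPKM in q2 and 11.0 FPKM in q1. Its position in the table is chr15:75108161-75111949 (GRCm38), and its longest coding transcript has 4 exons on the minus strand. The log2 fold change was 3.50 in the authors' deposited table (Cuffdiff q = 0.0108). Only 0.781% of tested genes had a larger log2 fold change. The neighbouring copy Ly6c1, an abundant endothelial transcript 59.3 kb away, was at 1422 FPKM in q2 and 1561 FPKM in q1 and was not called (q = 0.999 in the authors' deposited table). The longest coding transcripts of Ly6c2 and Ly6c1 were identical at 97.6% of aligned bases, and 32.6% of the 50-base windows of Ly6c2 occurred unchanged in Ly6c1. Ly6c2 made up 8.05% of the summed level of the pair in q2 and 0.698% in q1. How shared reads were split by the authors' counting is not stated in the labels, and the level of Ly6c2 is uncertain.

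Of the pattern recognition receptors, Clec4e had the larger fold and Cd14 the higher level. Clec4e codes for Mincle, a lectin that binds mycobacterial glycolipids and products of dead cells, and had 39.4 FPKM in q2 and 5.95 FPKM in q1. At chr6:123281789-123289871 it has 6 exons, and it differed by a log2 fold change of 2.73 in the authors' deposited table (Cuffdiff q = 0.0108). Cd14, the co-receptor that passes lipopolysaccharide to Tlr4, had 525 FPKM in q2 and 227 FPKM in q1. Its log2 fold change of 1.21, the smallest of the 10, did not pass (q = 0.317 in the authors' deposited table). It lies at chr18:36725067-36726654 and has 2 exons.

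Fcgr1 codes for the high-affinity IgG receptor CD64 and was the lowest of the 10 genes, with 6.53 FPKM in q2 and 1.24 FPKM in q1. The 5.27-fold difference rests on a level near 1 FPKM in q1 and was 3.37-fold with a pseudocount of 1. It was not called (q = 0.264 in the authors' deposited table). Fcgr1 lies at chr3:96282909-96293969 with 6 exons.

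The adaptors Tyrobp and Fcer1g were close to each other in level and in fold. Tyrobp, at chr7:30413788-30417579 with 5 exons, had 347 FPKM in q2 and 115 FPKM in q1, and it passed the test (log2 fold change 1.59, Cuffdiff q = 0.0201 in the authors' deposited table). Fcer1g, at chr1:171229572-171234349 with 5 exons, had 261 FPKM in q2 and 102 FPKM in q1 and did not pass (log2 fold change 1.36, q = 0.162 in the authors' deposited table). The ratio of Tyrobp to Fcer1g was 1.33 in q2 and 1.14 in q1. A call for one adaptor and none for the other does not show that they differed, and that difference was not tested.

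Lyz2 and Chi3l3 code for secreted proteins. Lyz2, which codes for the lysozyme of macrophages and granulocytes, had 1504 FPKM in q2 and 633 FPKM in q1, and only 0.350% and 0.929% of tested genes were more abundant. It alone made up 47.2% of the summed level of the 10 genes in q2 and 55.4% in q1. It lies at chr10:117277541-117282272 with 4 exons and did not pass (log2 fold change 1.25, q = 0.504 in the authors' deposited table).

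Lyz1, 5.52 kb away on the same strand and best known from Paneth cells of the gut, had 217 FPKM in q2 and 94.6 FPKM in q1. The ratio of Lyz2 to Lyz1 was 6.93 in q2 and 6.69 in q1, so both genes had nearly the same fold. Of the 50-base windows of Lyz2, 15.4% occurred in Lyz1, and the transcripts were identical at 95.8% of aligned bases. The part of shared reads in this ratio was not tested.

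Chi3l3, now named Chil3, codes for the chitinase-like protein Ym1 and had 303 FPKM in q2 and 26.9 FPKM in q1. Its log2 fold change was 3.50 (Cuffdiff q = 0.0108 in the authors' deposited table). It lies at chr3:106147554-106167564 with 11 exons, and 29.4% of its 50-base windows occurred in transcripts of other genes. The copy Chi3l4 was near 0, with 0.0227 FPKM in q2 and 0.0097 FPKM in q1, and was not tested by the authors. The related gene Chi3l1, which codes for another chitinase-like secreted protein, had 39.7 FPKM in q2 and 12.5 FPKM in q1 and was called higher (log2 fold change 1.66, Cuffdiff q = 0.0275 in the authors' deposited table).

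**Figure D2:**
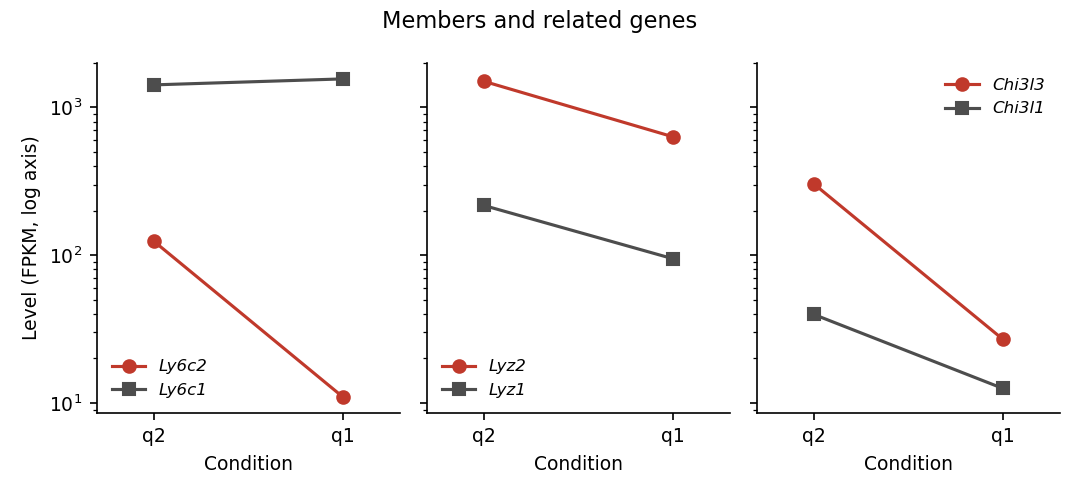
Levels in q2 and q1 in FPKM on a log axis for Ly6c2 with Ly6c1, Lyz2 with Lyz1 and Chi3l3 with Chi3l1, 1 pooled value per point. The line of Ly6c1 is almost level at 1422 and 1561 FPKM while Ly6c2 is at 124 FPKM in q2 and 11.0 FPKM in q1, and the lines of Lyz2 and Lyz1 run parallel.

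Plac8 and Aif1 code for intracellular proteins. Plac8, a small cysteine-rich protein of myeloid cells, had 39.2 FPKM in q2 and 8.97 FPKM in q1 and did not pass (log2 fold change 2.13, q = 0.105 in the authors' deposited table). Plac8 lies at chr5:100553733-100572205 with 5 exons, 0.575 Mb from the targeted gene Hnrnpd, with 9 genes of the table between them. With mice of mixed C57BL/6 and 129 origin, linked strain sequence and the AUF1 genotype cannot be told apart there. Aif1, the calcium-binding protein also called Iba1, had 37.4 FPKM in q2 and 12.0 FPKM in q1 at chr17:35170992-35176001 with 8 exons. It did not pass (log2 fold change 1.64, q = 0.229 in the authors' deposited table).

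Genes that were low in q1 had the larger folds. The 4 genes at 100 FPKM or more in q1 were 2.31 to 3.00-fold higher in q2, and the 6 below that were 3.12 to 11.3-fold higher. The level in q1 enters both sides of this statement. The order of levels also changed. In q2 the order from high to low was Lyz2, Cd14, Tyrobp, Chi3l3, Fcer1g, Ly6c2, Clec4e, Plac8, Aif1 and Fcgr1. In q1 it was Lyz2, Cd14, Tyrobp, Fcer1g, Chi3l3, Aif1, Ly6c2, Plac8, Clec4e and Fcgr1. Without a spread between samples, neighbours in these orders cannot be told apart, least of all Clec4e, Plac8 and Aif1 in q2, at 39.4, 39.2 and 37.4 FPKM. Summed over the 10 genes, the level was 3187 FPKM in q2 and 1143 FPKM in q1. In bulk samples, more cells of a type and more RNA per cell cannot be told apart.

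The targeted gene Hnrnpd was at 5.59 FPKM in q2 and 7.50 FPKM in q1 and was not called (q = 0.999 in the authors' deposited table). Neither level was near 0, so the gene's level does not show a loss in either condition or tell which is AUF1-null. The labels do not say which part of the gene was deleted. The sorting marker Sdc4 was at 270 FPKM in q2 and 173 FPKM in q1, also without a call (q = 0.999 in the authors' deposited table). Of 12 satellite cell markers none was called and their median log2 fold change was -0.04. Pax7, the transcription factor that defines these cells, was low in both conditions, at 0.854 FPKM in q2 and 1.16 FPKM in q1, while Myf5, a myogenic factor, was at 17.8 and 16.7 FPKM.

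Of the other classical monocyte markers, Hp, Ms4a4c, Ifitm6 and Ccr2 were among the genes that rose in q2. Of 18 tested, 5 were called higher and none lower, beside 0.498% and 0.114% of all tested genes, with 14 above and 4 below 0 and a median log2 fold change of 0.74. Hp, the haptoglobin gene, had 148 FPKM in q2 and 14.7 FPKM in q1, and the interferon-induced membrane protein gene Ifitm6 had 198 and 22.1 FPKM. Ms4a4c was at 11.0 FPKM in q2 and 1.21 FPKM in q1. The log2 fold changes of these genes lay between 3.16 and 3.33 (Cuffdiff q = 0.0108 for each in the authors' deposited table). Ccr2, the receptor that brings monocytes out of the marrow, was called with a log2 fold change of 1.77 (Cuffdiff q = 0.0275 in the authors' deposited table).

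The genes of this list below 0 were Csf1r, F13a1, Vcan and Klf4. Csf1r, the growth factor receptor of monocytes and macrophages, had 49.7 FPKM in q2 and 83.8 FPKM in q1, and F13a1, a coagulation factor subunit made by monocytes, had 81.3 and 119 FPKM. Neither was called (q = 0.999 for both in the authors' deposited table). Spi1, listed as Sfpi1, codes for the factor PU.1 and was at 1.18 FPKM in q2 and 0.678 FPKM in q1. None of 10 tested non-classical monocyte markers was called, although 3 were higher at an unadjusted p below 0.05 in the authors' deposited table, as were 3.72% of all tested genes. Their median log2 fold change was 0.91, and 0.43 with a pseudocount of 1, and their summed level was 687 FPKM in q2 and 673 FPKM in q1. Most of that sum was Nr4a1. Nr4a1, on which these cells depend, was at 622 FPKM in q2 and 624 FPKM in q1.

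Among receptors that pair with Tyrobp or Fcer1g, 3 of 15 tested were called higher and none lower, beside 0.498% and 0.114% of all tested genes, with 14 above 0 and a median log2 fold change of 1.38. These were Trem3, at 21.5 FPKM in q2 and 1.96 FPKM in q1, Trem1, at 19.9 and 4.48 FPKM, and Clec4d, at 24.6 and 2.97 FPKM. Trem1 and Trem3 are activating receptors that signal through Tyrobp, and Clec4d is a lectin that forms a complex with Clec4e and Fcer1g. Each had a Cuffdiff q of 0.0108 in the authors' deposited table. Clec4d is the next gene to Clec4e, 6.52 kb away. The other tested genes of the Clec4 and dectin list were not called. With Clec4d included, all 8 tested lay above 0 (median log2 fold change 1.12). Clec4a1, for example, was at 35.4 FPKM in q2 and 17.3 FPKM in q1.

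None of the 4 other listed receptors for IgG was called, beside 0.498% of all tested genes called higher and 0.114% called lower. Fcgr4, 0.2 Mb from Fcer1g, was at 9.62 FPKM in q2 and 0.448 FPKM in q1 without passing (q = 0.0946 in the authors' deposited table). Fcgr3 was at 49.5 FPKM in q2 and 39.7 FPKM in q1, the inhibitory receptor Fcgr2b at 30.8 and 29.5 FPKM and the transport receptor Fcgrt at 331 and 324 FPKM. Of 21 signalling proteins downstream of ITAM adaptors, 1 was called higher, the Src-family kinase gene Fgr, at 10.4 FPKM in q2 and 2.23 FPKM in q1 (log2 fold change 2.22, Cuffdiff q = 0.0108 in the authors' deposited table). Over all tested genes 0.498% were called higher. The list had 19 members above 0 and a median of 0.60. Syk itself was at 9.81 FPKM in q2 and 6.46 FPKM in q1 without a call (q = 0.999 in the authors' deposited table).

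A further list held 14 genes of lipopolysaccharide recognition and its signalling, not all of them direct partners of Cd14. None was called in the authors' deposited table, beside 0.498% of all tested genes called higher and 0.114% called lower. The median log2 fold change of these 14 was 0.10. By unadjusted p below 0.05 there, 1 was higher, Ly86, beside 3.72% of all tested genes. Tlr4 was at 8.12 FPKM in q2 and 6.96 FPKM in q1, its co-receptor Ly96 at 25.5 and 20.9 FPKM, and the adaptor gene Myd88 at 101 and 96.4 FPKM. Of 9 tested genes of the Ly6 family none was called, beside 0.498% of all tested genes called higher and 0.114% called lower. The family median was 0.18, with Gpihbp1, the lipase anchor of capillaries, at 1390 FPKM in q2 and 1161 FPKM in q1. Of the 9, 2 were higher at an unadjusted p below 0.05 in the authors' deposited table, beside 3.72% of all tested genes. They were Ly6i, at 9.54 FPKM in q2 and 2.13 FPKM in q1, and Ly6d, at 17.3 and 5.02 FPKM.

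**Figure D3:**
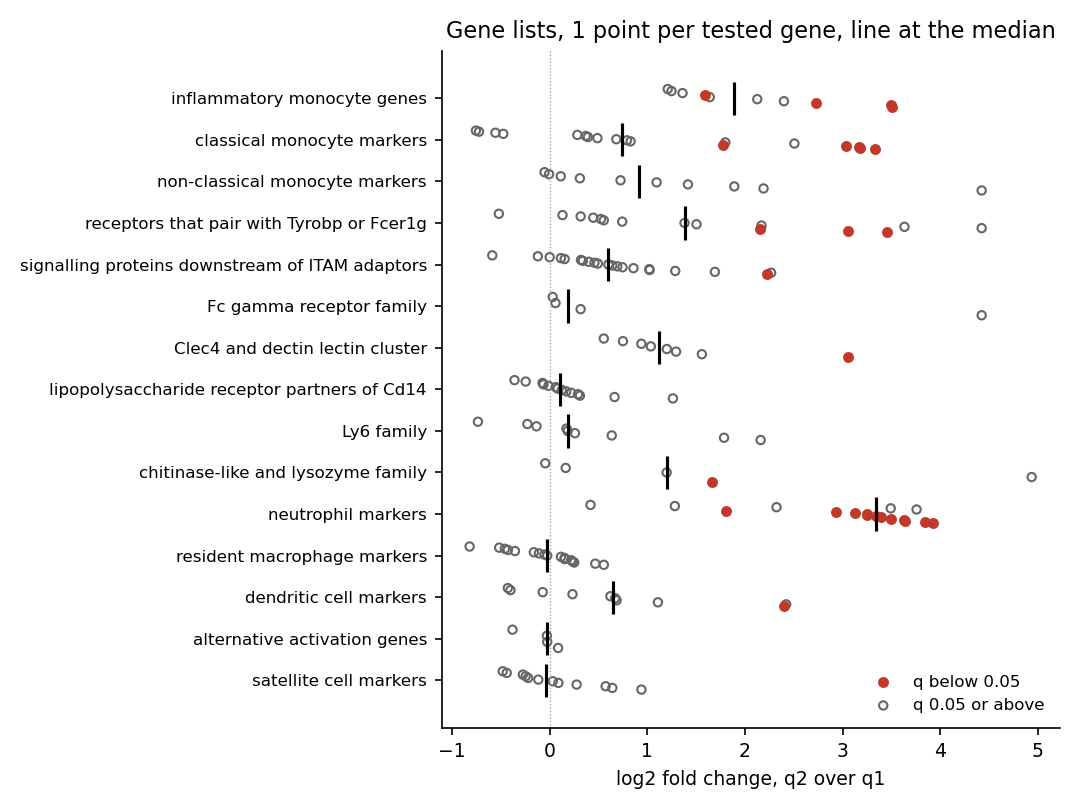
log2 fold change of q2 over q1 for each tested gene above 0 in both conditions, by list, with filled points for genes at q below 0.05 in the authors' deposited table and a line at the median. The 10 inflammatory monocyte genes lie between 1.21 and 3.50, the neutrophil markers have a median of 3.34 and the resident macrophage markers lie on both sides of 0.

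Neutrophil markers moved in the same direction as the 10 genes. Of 17 tested, 12 were called higher and none lower, beside 0.498% and 0.114% of all tested genes, all 17 lay above 0, and the median log2 fold change was 3.34. Summed over the 19 markers in the table, the level was 15666 FPKM in q2 and 1228 FPKM in q1. S100a8 and S100a9 were at 6478 and 3185 FPKM in q2, against 426 and 222 FPKM in q1. Mmp8 was 12.5-fold and Camp 12.4-fold higher. Stfa3 was listed at 0 in q1, and no marker was at 0 in q2. The log2 fold changes of the 17 ran from 0.42 for Cxcr2, which was not called, to 3.93 for S100a8. Those of Ly6c2 and Chi3l3, 3.50 for both, stood near the neutrophil median. The other members stood below that median but within the range, down to 1.25 for Lyz2 and 1.21 for Cd14. The part of neutrophil RNA in the levels of the 10 genes was not tested. Nor was it tested for the other called monocyte markers, the called receptors or Fgr.

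Resident macrophage markers lay on both sides of 0. None of 17 was called, beside 0.498% of all tested genes called higher and 0.114% called lower. Of the 17, 8 lay above and 9 below 0, and the median log2 fold change was -0.02. By unadjusted p below 0.05 in the authors' deposited table, none was higher and 1 was lower, beside 2.27% of all tested genes. It was Cd163, at 13.1 FPKM in q2 and 23.1 FPKM in q1. Summed, the markers were at 1507 FPKM in q2 and 1308 FPKM in q1, with none at 0. The complement gene C1qb was at 468 FPKM in q2 and 319 FPKM in q1, the chemokine gene Pf4 at 327 and 275 FPKM and the macrophage antigen gene Emr1 at 23.5 and 26.3 FPKM. Markers of neutrophils and of macrophages were thus counted in both conditions of the sorted cells.

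**Figure D4:**
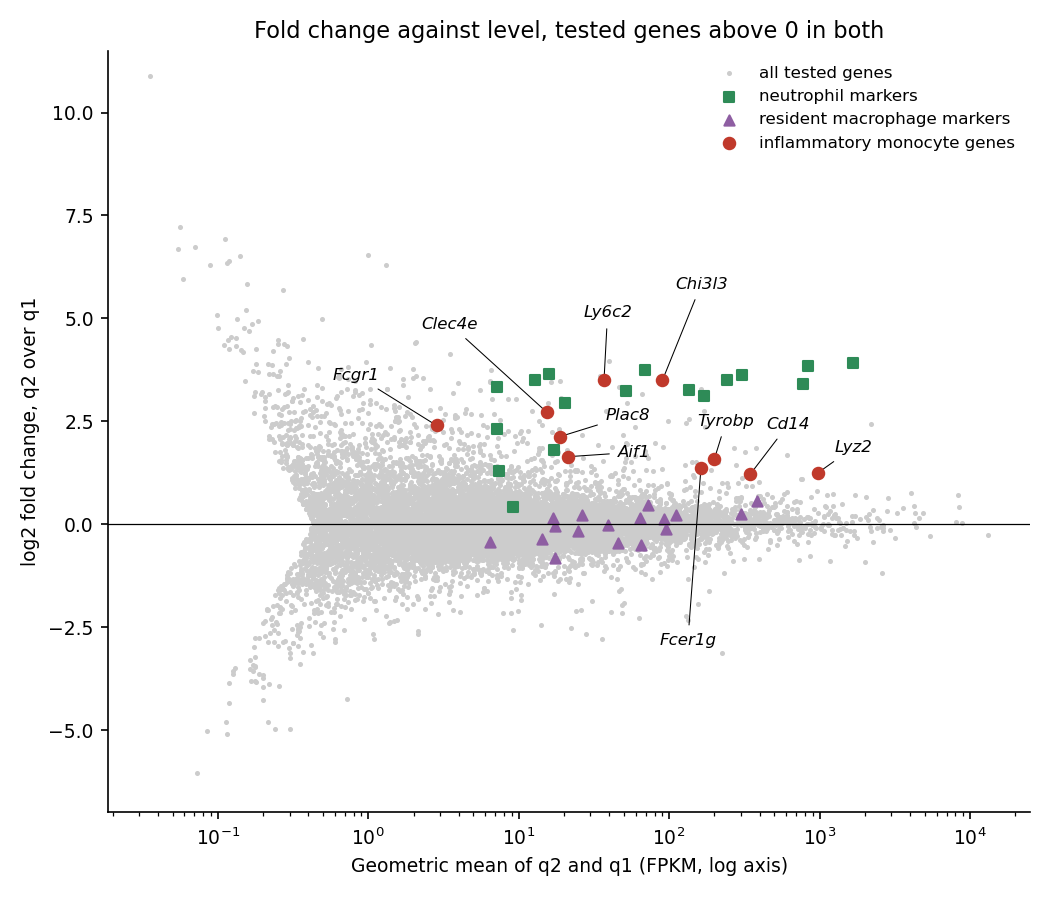
log2 fold change of q2 over q1 against the geometric mean of both levels in FPKM on a log axis, for the 14779 tested genes above 0 in both conditions. The 10 genes (red) all lie above 0, with Ly6c2 and Chi3l3 near the median height of the neutrophil markers (green squares). The resident macrophage markers (purple triangles) lie around 0.

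For each called member, the other tested gene with the most similar pair of levels was found by distance on the log2 scale over the 2 conditions. For Clec4e this was 1810033B17Rik (Mcemp1 in RefSeq), at 43.2 FPKM in q2 and 5.63 FPKM in q1, a distance of 0.15. For Chi3l3 it was Elane, the neutrophil elastase gene, at 255 and 18.9 FPKM, a distance of 0.57. Elane shares 1 position with Prtn3 in the table and was not called. For Tyrobp it was Hmgn2, a chromatin protein gene, at 360 FPKM in q2 and 126 FPKM in q1 (distance 0.13). For Ly6c2 it was the microRNA gene Mir5113, at 120 and 9.94 FPKM (distance 0.15), which was far from a call (p = 0.461 in the authors' deposited table). Likeness over 2 values is a weak description.

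Because AUF1 binds AU-rich elements, the longest 3' UTR that GENCODE M21 (GRCm38) gives for each of the 10 genes was searched on the sense strand. None of the 10 held TATTTAT, which 29.7% of 13613 tested genes with a 3' UTR held, and 4 held the shorter ATTTA, beside 69.2% of those genes. The 3' UTRs of the 10 genes were short, with a median of 320.5 bases against 1134 bases over tested genes, and shares matched on length were not computed. Clec4e had 5 ATTTA sites in 1751 bases, Plac8 had 2, and Ly6c2 and Cd14 had 1 each. The sites of the called genes Clec4e and Ly6c2 are shown with 10 bases on each side, ATTTA in capitals.
Clec4e, site 1: aagtgaaattATTTAaaaattcatg
Clec4e, site 2: tcaggactgcATTTAttgcatgata
Clec4e, site 3: aattttgtgcATTTAtataattcac
Clec4e, site 4: gaaaattttaATTTAtcttaacata
Clec4e, site 5: taaatttcctATTTAgaaattggac
Ly6c2: ttgcaatgccATTTAgttgtggatc
These sites are letters in a sequence and no measure of binding.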

How the data were processed

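RNA from 3 AUF1-null and 3 wild-type samples was sequenced. The submitters' processing notes name TopHat2 2.0.9, Cufflinks 2.2.1 and the build mm9. The coordinates match GRCm38 instead, since 99.5% of 21355 genes matched by symbol and chromosome overlapped the RefSeq gene of GRCm38, as did all 10 members. Starts are printed with 1 added. The layout is that of a Cuffdiff gene table, per the file headers. Each gene has 1 FPKM value for q1 and 1 for q2 as deposited, pooled over replicates. The column headings name no unit, and FPKM is inferred from the Cuffdiff layout. Neither condition could be matched to a genotype, so both columns are given as levels of q2 and q1 without a genotype. The authors' deposited log2 fold change is q2 over q1 and equalled that of the values within 0.001 for all 10 members. The authors' deposited test statistic, a score written by Cuffdiff per the file headers, was not used. The authors' deposited p-value and q-value were taken as they stand, and adjusting the 14858 p-values by Benjamini-Hochberg gave back the same q-values. No p-value was below 5e-05, the value of 69 genes. Library normalization, annotation, strand setting and depth are not stated in the labels, and no counting interval is given. The labels do not say whether samples came from separate mice, so p-values may reflect technical spread.

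A gene was called at q below 0.05. Folds, ranks, medians and sums were computed from the deposited values with Python 3.11.15 and pandas 2.3.3, and no test between samples was run. Sequences came from RefSeq promoters and GENCODE M21 transcripts, aligned with Biopython 1.88. Sharing was measured as exact 50-base windows on either strand. Adjustment and medians were tested on simulated data. The members and the 14 gene lists were chosen with earlier results of these data known. Of 168 listed genes, 167 were found, 1 of them under an older symbol. The text names the 10 members, their copies, up to 4 called genes of each list by size of fold or else the 2 with the highest mean, the gene nearest to each called member, Hnrnpd and Sdc4. Other genes were named after their values were seen, and 1 called gene is not reported here. Other settings tried were the threshold on q, pseudocounts, centring, a minimum level or fold, and members without shared sequence.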

Additional observations from a re-analysis of the deposited data

How the results depend on the processing

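The count of 4 called genes stayed at 4 with q below 0.1, where 110 tested genes were called, against 91 at 0.05. It was also 4 with a minimum fold of 2 (91 over all tested genes). It was 4 as well with a minimum of 1 FPKM on the higher side and p-values adjusted again (75 over all tested genes). Neither minimum could itself remove a member, since the lowest member level in q2 was 6.53 FPKM and the lowest fold 2.31. The count was 0 at q below 0.01, where Cuffdiff called no gene of the table, since the smallest q is 0.0108. All 10 genes had an unadjusted p below 0.05 in the authors' deposited table, as had 3.72% of tested genes in this direction. Among the 7 genes with at most 10% of 50-base windows shared with another gene, 2 were called, Clec4e and Tyrobp. The median log2 fold change of these 7 was 1.64, and the choice was made after seeing the data. Over all tested genes, to which this limit was not applied, 0.498% were called higher. The median of all 10 was 1.66 with a pseudocount of 1. It moved by less than 0.1 with a pseudocount of 0.1, with centring and with the minimum of 1 FPKM. Of 30 single-gene values recomputed with pseudocounts or centring, 4 moved by 0.1 or more, by at most 0.65. All kept their sign, which could not have changed. A pseudocount keeps the order of 2 values, and the median used for centring was -0.019 against a smallest log2 fold change of 1.21. No paired analysis was possible because the table holds 1 pooled value per condition, and for the same reason no replicate was left out. Depth and spread between samples are unknown, so a gene without a call is not shown to be the same in both conditions.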

Other observations

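Dendritic cell markers lay on both sides of 0, with 7 above and 3 below it. Of 10 tested, 1 was called higher and none lower, beside 0.498% and 0.114% of all tested genes. Ccr7, the receptor that leads dendritic cells to lymph nodes, was at 13.4 FPKM in q2 and 2.54 FPKM in q1 (log2 fold change 2.40, Cuffdiff q = 0.0275 in the authors' deposited table). Cd74, the invariant chain of antigen presentation, was at 2583 FPKM in q2 and 1621 FPKM in q1, and H2-Ab1 at 495 and 308 FPKM, neither of them called. The 3 below 0 were Cd209a, Zbtb46 and Clec9a, none of them called. Cd209a was at 28.0 FPKM in q2 and 37.0 FPKM in q1, Zbtb46 at 4.66 and 6.27 FPKM, and Clec9a at 3.24 and 3.40 FPKM. The median log2 fold change of this list was 0.65.

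Genes of alternative macrophage activation, a programme to which Chi3l3 is often assigned, had no called member among 4 tested. Over all tested genes, 0.498% were called higher and 0.114% lower. None of the 4 had an unadjusted p below 0.05 in the authors' deposited table, beside 3.72% of all tested genes higher and 2.27% lower. Retnla, a secreted protein often measured beside Chi3l3, was at 881 FPKM in q2 and 898 FPKM in q1, the mannose receptor gene Mrc1 at 38.7 and 39.3 FPKM, and Arg1 at 0.85 and 1.11 FPKM. The median log2 fold change was -0.03, beside 3.50 for Chi3l3.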
